A study of Rattus norvegicus with 16 samples.

Results

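The nuclear genes of oxidative phosphorylation were followed in knee cartilage of rats. They were taken as the genes that the deposited table annotates to the KEGG pathway Oxidative phosphorylation, without the 13 genes of the mitochondrial genome, without genes of the vacuolar proton pump (symbols starting with Atp6, and Tcirg1), and with 1 row per symbol. This left 99 of the 23552 genes of the table. Of these, 41 belong to complex I, 4 to complex II, 9 to complex III, 23 to complex IV and 16 to complex V, and 6 stand outside the complexes (3 pyrophosphatases, 2 proton pumps of the stomach and colon type, and LOC100363268, an unnamed copy). Levels are given as FPKM, fragments scaled to gene length and sequencing depth. Testing was limited to genes that reached an FPKM of 1 in 4 or more of the 16 libraries, which 94 of the 99 did, among 14337 genes in all. Ndufs6, Cox7a1, LOC687508, Atp4a and Atp12a did not reach that level.

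Libraries were made from 4 groups of 4 samples: healthy cartilage, osteoarthritic cartilage, osteoarthritic cartilage given hyaluronic acid (HA) with cells and a drug, and osteoarthritic cartilage given a coacervate with cells and the drug. Every sample carries the age of 10 weeks. Library names carry Sham for healthy and PBS for osteoarthritic samples, so neither is stated to be untouched. How the disease was produced, the strain and sex, the drug, the cells and the make-up of the coacervate are not given in the labels. Hyaluronic acid is a large sugar polymer of joint fluid, and a coacervate is a polymer-rich liquid phase that can hold other substances. The labels do not say that replicates came from separate animals, so p-values measure the spread between these samples, which may be technical. Transcripts of the cartilage matrix were present in all 16 libraries. Col2a1, the main collagen of cartilage, lay between 169 and 593 FPKM, and Acan, its large proteoglycan, between 8.14 and 38.92 FPKM. Comp lay between 60.58 and 215.29 and Prg4 between 67.05 and 339.68 FPKM. Sox9, a chondrocyte transcription factor, was low at 0.54 to 3.43 FPKM, with a mean of 1.40 in osteoarthritic cartilage. Its lowest value was below the FPKM of 1 used for testing.

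Oxidative phosphorylation passes electrons from NADH (through complex I) and succinate (through complex II) to complex III, cytochrome c and complex IV, where oxygen is reduced. Complexes I, III and IV pump protons across the inner mitochondrial membrane, and complex V, the ATP synthase, uses their return to make ATP. Most subunits are encoded in the nucleus and imported, while a core set is encoded by the mitochondrial genome. Chondrocytes live with little oxygen and rely strongly on glycolysis, and their mitochondria are studied in osteoarthritis.

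The promoters of these genes are known for sites of NRF1 and of ETS factors such as GABP, and some carry a site of YY1. The bases just before the start site are given below for the gene with the highest level in healthy cartilage in each complex. Ndufb8 is added, as its mean over all 16 libraries in complex I (82.9 FPKM) was just above that of Ndufa11 (82.7). The sequences show which of these sites stand before the start of genes with the most abundant transcripts, as matched by symbol. They come from RefSeq (GRCr8) and run 5′ to 3′ for the 150 bases up to the start. Capitals mark the letters CGCANGCG (the core of the NRF1 site), CCGGAAG (an ETS site) or AAGATGG (a YY1 site) on either strand.
Ndufa11 (complex I, chr9:1637464-1637613, + strand): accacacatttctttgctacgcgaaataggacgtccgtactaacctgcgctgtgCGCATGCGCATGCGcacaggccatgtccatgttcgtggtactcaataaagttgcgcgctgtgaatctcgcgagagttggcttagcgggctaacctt
Ndufb8 (complex I, chr1:253362937-253363086, - strand): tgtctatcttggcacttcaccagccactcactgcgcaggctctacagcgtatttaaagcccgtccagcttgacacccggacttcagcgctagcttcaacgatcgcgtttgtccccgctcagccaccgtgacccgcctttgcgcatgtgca
Sdhd (complex II, chr8:59850642-59850791, - strand): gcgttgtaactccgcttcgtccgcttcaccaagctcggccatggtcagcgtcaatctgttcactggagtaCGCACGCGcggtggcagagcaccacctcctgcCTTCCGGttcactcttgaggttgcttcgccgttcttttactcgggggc
Uqcrh (complex III, chr5:134790883-134791032, - strand): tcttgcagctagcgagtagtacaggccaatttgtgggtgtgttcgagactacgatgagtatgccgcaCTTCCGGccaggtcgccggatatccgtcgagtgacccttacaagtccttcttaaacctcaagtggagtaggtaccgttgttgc
Cox4i1 (complex IV, chr19:65630233-65630382, + strand): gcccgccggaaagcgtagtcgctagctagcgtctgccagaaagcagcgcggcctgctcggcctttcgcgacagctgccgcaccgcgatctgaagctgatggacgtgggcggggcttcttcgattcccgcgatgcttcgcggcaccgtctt
Atp5f1b (complex V, chr7:1099908-1100057, + strand): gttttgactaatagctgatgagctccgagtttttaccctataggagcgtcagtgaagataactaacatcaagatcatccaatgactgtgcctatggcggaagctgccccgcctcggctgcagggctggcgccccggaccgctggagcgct

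Ndufa11 held a pair of overlapping NRF1 cores, Sdhd an NRF1 core and an ETS site, and Uqcrh an ETS site. None of the 3 motifs stood in these bases of Ndufb8, Cox4i1 or Atp5f1b, which says only that these letters are not in that stretch. Of the 99 genes, 80 had a promoter in the RefSeq table under the same symbol. A match by symbol need not be the promoter of the row listed here. Ndufs6, a pseudogene row on chromosome 2, was matched to a promoter on chromosome 1 that holds an NRF1 core. Cox7a2l2, a row on chromosome 8, was matched to a promoter on chromosome 14. Over windows of 300 bases (250 before and 50 after the start), an NRF1 core was found in 25 of the 80 (31.3%), against 8.24% of all 27457 promoters and 16.7% of the 9690 promoters of genes tested here. An ETS site was found in 26.3% of the 80, against 9.22% of all promoters and 17.5% of those of tested genes. A YY1 site was found in 25% of the 80, against 7.30% and 8.47%. The NRF1 core was in 8 of 14 promoters of complex V, 10 of 32 of complex I, 2 of 4 of complex II, 2 of 6 of complex III and 2 of 19 of complex IV. These shares describe sequence only and no binding was measured.

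**Figure D1:**
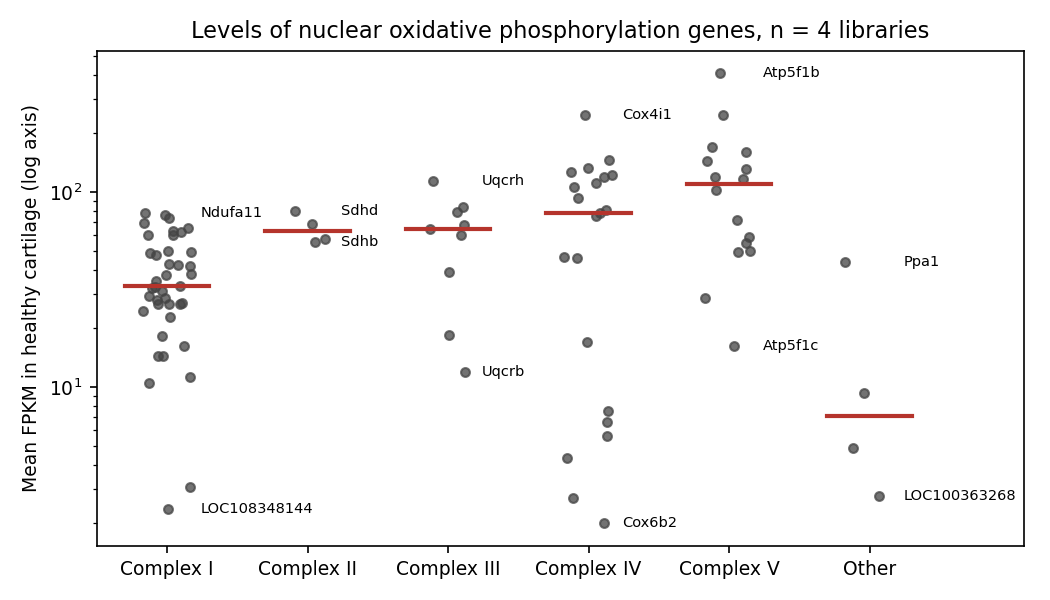
Mean FPKM in the 4 healthy libraries (log axis) of the 94 tested genes, by complex, with the highest and lowest gene of each complex named. Red lines are medians over the tested genes, 32.8 FPKM in complex I and 109.7 FPKM in complex V, and Atp5f1b stands highest at 406 FPKM.

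In healthy cartilage the tested genes stood high among all transcripts, with a median of 49.1 FPKM against 8.57 FPKM for all tested genes, and 84 of the 94 lay above that overall median. The order of the complexes by their median over tested genes was complex V at 109.7 FPKM, complex IV at 78.2, complex III at 64.4, complex II at 62.9 and complex I at 32.8. This order depends on the genes each set holds. The 10 common subunits of complex IV had a median of 121.2 FPKM, above complex V, while its 4 assembly factors had 6.57. Complex I includes 5 copies of subunit genes with a median of 11.2 FPKM. The level of Atp5f1b, the catalytic beta subunit of the ATP synthase, was 408, 406, 413 and 396 FPKM in healthy replicates 1 to 4, a mean of 406 ± 7.12 (SD, n = 4). That of Atp5f1a, the alpha subunit that alternates with it in the F1 head, was 247.7 ± 19.1 FPKM, and that of Atp5f1c, the single gamma subunit that turns inside the head, was 16.3 ± 1.30. By counts per FPKM Atp5f1c was the longest of the 94, at 3.48 relative to the median gene, which lowers its FPKM. This length is that of the annotated row and need not be that of the transcript. In CPM (counts scaled to an equal effective library size), healthy libraries held 130.9 to 143.8 for Atp5f1c. The CPM values were 475.5 to 552.9 for Atp5f1a and 778.5 to 837.1 for Atp5f1b. The beta transcript was thus the higher in every healthy library, although the enzyme holds alpha and beta in equal number.

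Cox4i1, the widespread form of subunit 4 of cytochrome c oxidase, led complex IV at 246.7 ± 22.4 FPKM, and the 10 common subunits of that complex lay between 78.2 and 246.7. Uqcrh, the hinge protein that helps cytochrome c dock, led complex III at 113.2 FPKM. Its core members Uqcrfs1 (the Rieske iron-sulfur protein) and Cyc1 (cytochrome c1) had 83.9 ± 2.79 and 60.2 ± 5.15 FPKM. In complex II, the 4 subunits kept within 1.43-fold of each other, from 55.6 FPKM for Sdhb to 79.5 for Sdhd. The 7 core subunits of complex I, which carry its flavin and iron-sulfur clusters, ran from 26.8 FPKM (Ndufs7) to 73.3 (Ndufv2), and the accessory subunit Ndufa11 was the highest gene of the complex at 77.7 ± 4.15, with Ndufb8 at 69.5 ± 9.01.

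Several members cannot be told from near copies. Ndufs6 is listed as a processed pseudogene near 0, while LOC100912599 and LOC679739, both described as subunit S6, carried the reads. The first of them held 49.3% to 57.2% of their joint counts in the healthy libraries but 5.41% in osteoarthritic replicate 2, 88.5% in osteoarthritic replicate 4 and 91.2% in coacervate replicate 4, so the split between them moved from library to library. Their joint level was 21.1 to 23.3 CPM (counts scaled to an equal effective library size) in healthy, 18.5, 60.4, 55.1 and 18.4 in osteoarthritic replicates 1 to 4, 21.4 to 28.8 after HA and 18.9 to 25.7 after the coacervate. Ndufa1 and LOC108348144 are both described as subunit A1, and Atp5pb and LOC100911417 both as subunit b of the ATP synthase, where Atp5pb held 47.0% to 56.4% of the joint counts over the 16 libraries. Uqcrb, listed lowest in complex III at 11.9 ± 2.08 FPKM in healthy cartilage, is the row on chromosome 7. A second row with that symbol, on chromosome 1, had 59.1 ± 8.50 FPKM there, and since it has no pathway annotation in the table it is not among the 99 genes. The lower value is therefore not the level of the gene as a whole. Sums over such pairs were made after their values were seen.

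In these genes, 2 libraries of the osteoarthritic group, replicates 2 and 3, differed from the remaining 14. The same 2 libraries stood apart over all tested genes, where a principal component analysis put them at 69.6 and 58.9 on its leading axis and the others between -32.3 and 12.7. This axis carried 32.5% of the variance, so their separation is not particular to these genes. The mean log2 level of the 94 genes, each relative to its mean over 16 libraries, was -0.28, 0.70, 0.64 and -0.30 in osteoarthritic replicates 1 to 4. It was -0.13 to -0.01 in the healthy, -0.15 to 0.03 in the HA-treated and -0.22 to 0.03 in the coacervate-treated libraries. The osteoarthritic group therefore held both the 2 highest and the 2 lowest of all 16 libraries, and its SD of 0.56 was larger than the 0.07, 0.08 and 0.12 of the healthy, HA-treated and coacervate-treated groups. As a share of all counts, the 99 genes took 0.923% and 0.915% in those 2 libraries and 0.585% to 0.704% in the other 14. Of the 94 genes, 75 (79.8%) had osteoarthritic replicates 2 and 3 as the 2 highest libraries of 16, against 20.1% of all tested genes. In 42 of the 94 (44.7%) replicates 2 and 3 lay above every healthy library and replicates 1 and 4 below every healthy library, against 6.42% of all tested genes.

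**Figure D2:**
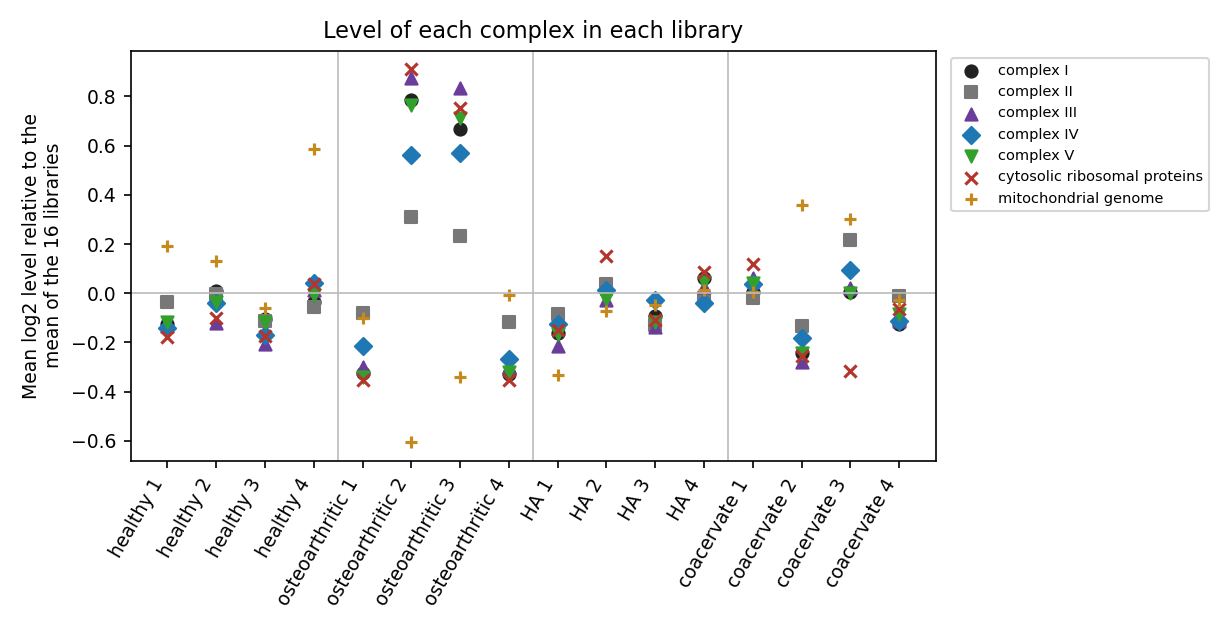
Mean log2 level of the genes of each complex in each of the 16 libraries, relative to the mean of the 16 libraries, beside the cytosolic ribosomal protein genes and the 13 protein genes of the mitochondrial genome. In osteoarthritic replicates 2 and 3 complexes I and III to V lie between 0.56 and 0.88, complex II lies at 0.31 and 0.23, and the mitochondrial genome lies at -0.61 and -0.34.

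The complexes did not share this pattern equally, and their genes also differed in length, as given further below. Complex III was at 0.88 and 0.84 in replicates 2 and 3, complex I at 0.79 and 0.67 and complex V at 0.77 and 0.71. Complex II, which also serves the citric acid cycle, was at 0.31 and 0.23, and coacervate replicate 3 reached 0.22 there. Within complex IV the common subunits were at 0.98 and 0.86, while the 4 assembly factors (Cox10 and Cox15, which make its haem, and Cox11 and Cox17, which deliver its copper) were at 0.07 and 0.19. That mean joins unlike genes: replicates 2 and 3 differed from replicates 1 and 4 by 1.04 (log2) in Cox17, 0.17 in Cox11, -0.19 in Cox15 and -0.38 in Cox10. By gene, both libraries were the 2 highest in all 9 tested genes of complex III, 15 of 16 of complex V, 34 of 40 of complex I, 13 of 21 of complex IV and 2 of 4 of complex II.

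Other transcripts moved with these 2 libraries. The 92 tested ribosomal protein genes were at 0.91 and 0.75, against -0.35 to 0.15 in the other 14. Haemoglobin genes, which come from red blood cells, took 22.2% and 21.7% of the counts, against 10.2% to 16.3%. The protein genes of the mitochondrial genome, which encode partners of the same complexes, went the other way, with 2.42% and 2.92% of the counts against 3.62% to 6.07%. The 14 tested cartilage matrix genes were at -0.52 and -0.24, against -0.63 to 0.53 elsewhere, with osteoarthritic replicates 1 and 4 at 0.48 and 0.47. The part of each of these in the levels of the 94 genes was not tested. In bulk tissue, fewer cells of a type and less RNA per cell cannot be told apart.

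The difference between replicates 2 and 3 and replicates 1 and 4 also followed the length of the gene as the table measures it (counts per FPKM, relative to the median gene). The 94 genes were short, with a median of 0.344. Their median difference was 1.36 on the log2 scale in the 28 genes under 0.25, 1.003 in the 34 genes from 0.25 to 0.5, 0.79 in the 22 genes from 0.5 to 1 and 0.39 in the 10 genes above 1. In the other tested genes it was 0.36, 0.64, 0.29 and -0.30 over the same classes, so the 94 genes were the higher in each class. This excess is not particular to the 94 genes. The 92 tested ribosomal protein genes, at a median length of 0.302, had a median difference of 1.22, above the 0.98 of the 94. Spearman's rho across genes, which are not independent replicates and share the libraries, was -0.50 over the 94 and -0.54 over all 14337. Ndufa1, the shortest of the 94 by this measure at 0.101, differed by 2.53, but with the counts of its near copy LOC108348144 added the pair differed by 1.48. Short genes were not all alike, with LOC684509 (0.121) at 0.99, Ndufa3 (0.131) at 0.70 and Atp5f1e (0.177) at 1.91. On the long side, Ndufs1 (1.17), Cox10 (1.36), Cox15 (1.34) and Sdha (1.08) differed by -0.27, -0.38, -0.19 and -0.10. Length also differed between the sets compared above. In complex II it was 0.463 for Sdhb, 0.542 for Sdhc and 0.576 for Sdhd, beside Sdha. Among the assembly factors of complex IV, Cox17 was at 0.199 and Cox11 at 1.44, beside Cox10 and Cox15. The common subunits of complex IV ran from 0.212 (Cox6c) to 0.371 (Ndufa4). The part of length in the pattern, or in the order of the complexes, was not tested.

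**Figure D3:**
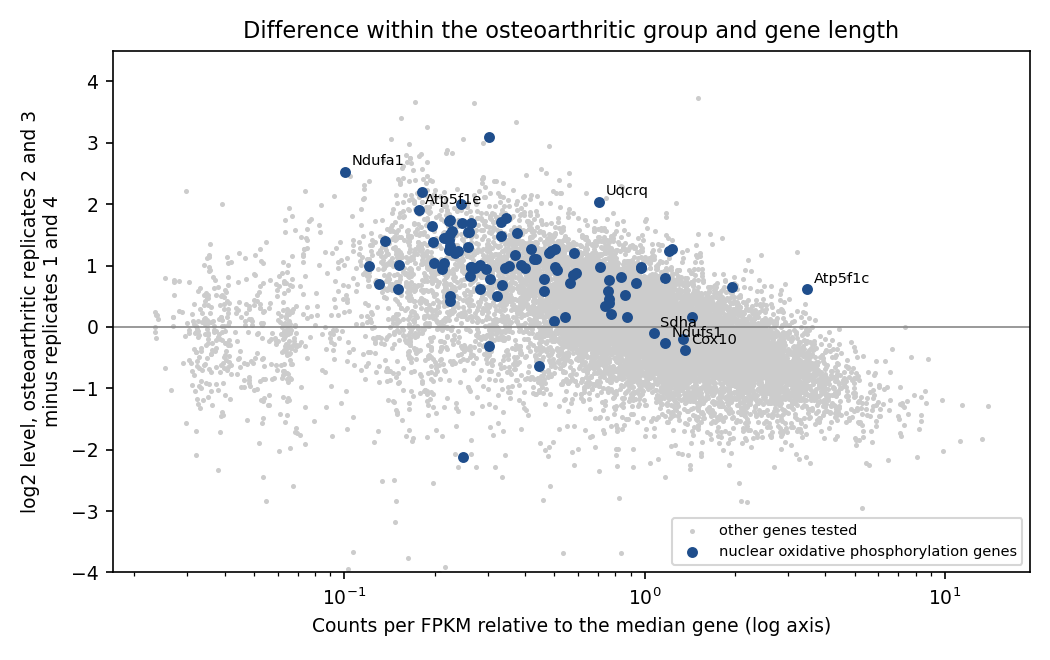
Difference in mean log2 level between osteoarthritic replicates 2 and 3 and replicates 1 and 4, against counts per FPKM relative to the median gene (log axis), for the 94 genes (blue) and the other tested genes (grey, 3 of them beyond the lower end of the y axis). Short genes tend to lie higher than long ones in both, with Atp5f1e at 1.91 and Cox10 at -0.38, and Ndufa1, at 2.53, is at 1.48 when its near copy is added.

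The first comparison asked how these genes differed between osteoarthritic and healthy cartilage. No member passed the test (edgeR's quasi-likelihood test, Benjamini-Hochberg adjusted p below 0.05 over 14337 genes), where 0.502% of all tested genes did. The smallest adjusted p was 0.114. At an unadjusted p below 0.05, 32 of 94 stood out (31 higher, 1 lower), against 17.8% of all tested genes, and DESeq2 called 3 of them (2.94% of all genes), LOC108348144, Ndufs5 and Uqcrq. The median log2 fold change over the 94 was 0.36, with 82 values above 0 and 12 below, beside a median of 0.01 over all tested genes. On the FPKM scale the split was 68 to 26, with a median of 0.16 against -0.11 for all genes (log2 of FPKM + 1, limma), which is 0.27 above them.

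**Figure D4:**
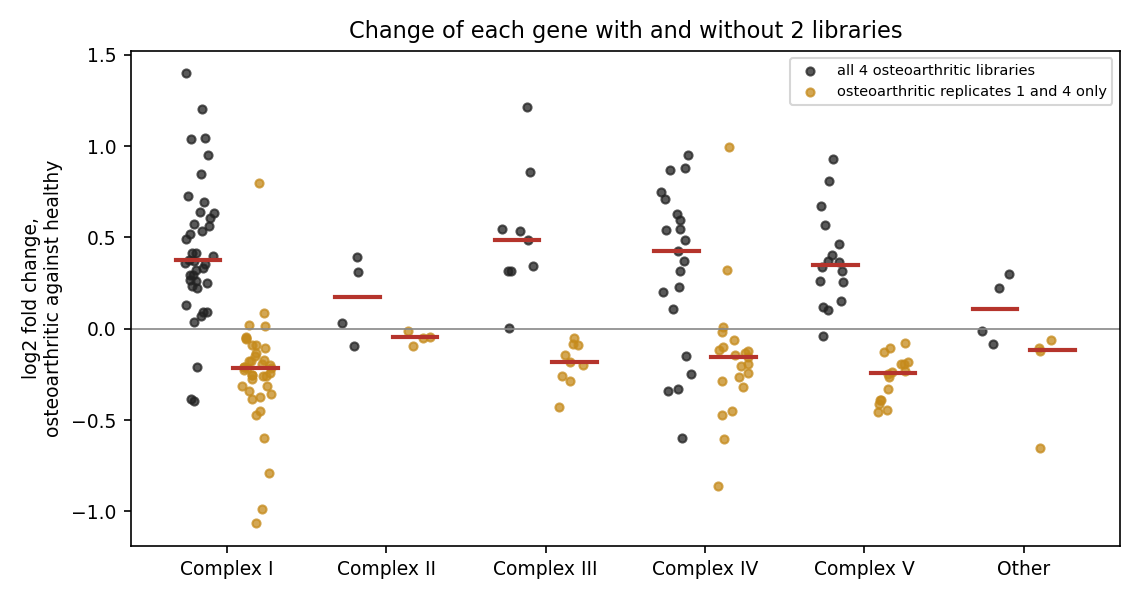
Log2 fold change of each tested gene between osteoarthritic and healthy cartilage (edgeR), by complex, with all 4 osteoarthritic libraries (black) and with replicates 1 and 4 only (orange). Red lines are medians, and over all 94 genes the median is 0.36 in the first fit and -0.20 in the second.

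Without osteoarthritic replicates 2 and 3 the median was -0.20, with 7 values above 0 and 87 below. Those libraries were set aside because these genes were highest in them, and the pair that remains holds the lowest libraries of 16. Here and in the comparisons that follow, the change of sign therefore restates how the 4 libraries differ and is no separate test. The 1 member called in that fit (1.14% of all genes), Atp5mc3, a gene of the membrane ring of the ATP synthase, is given for its values only. Without osteoarthritic replicate 1, 21 members were called, all higher (7.83% of all genes), and without replicate 4, 1 was (0.335%). The 21 held 9 of the 40 tested genes of complex I, 3 of 9 of complex III, 7 of 21 of complex IV and 2 of 16 of complex V. Replicates 1 and 4 are the lowest libraries for these genes. Calls made without either of them therefore also follow from how the 4 libraries differ and are no separate test.

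The level of Atp5mc3 was 105.2, 98.5, 114.7 and 110.0 CPM in healthy replicates 1 to 4 and 78.1, 163.0, 151.0 and 83.3 CPM in osteoarthritic replicates 1 to 4. Osteoarthritic replicates 2 and 3 were above, and replicates 1 and 4 below, all healthy libraries. Uqcrq, a small subunit of complex III (chromosome 10, 38779132 to 38782419 in rn6), was at 29.1, 31.9, 27.6 and 36.2 CPM in healthy and at 26.8, 117.6, 114.9 and 29.7 CPM in osteoarthritic libraries. Its log2 fold change was 1.21 ± 0.37 (SE, adjusted p = 0.171), and only replicates 2 and 3 lay above the healthy range. Ndufs5, an accessory subunit of complex I whose promoter holds an NRF1 core (chromosome 5, 141390580 to 141405453), was at 19.0, 19.7, 17.9 and 19.0 CPM in healthy and at 19.2, 60.0, 58.8 and 17.4 CPM in osteoarthritic libraries. Its log2 fold change was 1.04 ± 0.32 (adjusted p = 0.171), and replicates 1 and 4 lay at the healthy level or just under it. Without replicates 2 and 3 these values were -0.15 for Uqcrq and -0.05 for Ndufs5.

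The smallest adjusted p belonged to LOC108348144, one of the 2 rows for subunit A1 of complex I. It was at 9.61, 7.00, 7.49 and 3.79 CPM in healthy and at 18.9, 29.0, 20.4 and 5.31 CPM in osteoarthritic libraries (log2 fold change 1.40 ± 0.37, adjusted p = 0.114). In osteoarthritic replicate 1, Ndufa1 held 8.67% of the joint counts of the pair, against 41.4% to 79.1% in the healthy libraries. Added together, the 2 rows gave 16.4, 21.9, 18.1 and 18.2 CPM in healthy and 20.7, 51.2, 46.6 and 14.8 CPM in osteoarthritic libraries. The joint level of the pair was therefore above the healthy range in replicates 2 and 3 and within or below it in replicates 1 and 4.

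Few members were lower. Cox10, which makes haem O for complex IV (chromosome 10, 50439782 to 50574539), was at 20.3, 17.4, 17.6 and 17.8 CPM in healthy and at 16.1, 12.5, 12.7 and 16.7 CPM in osteoarthritic libraries, a log2 fold change of -0.33 ± 0.14 (adjusted p = 0.246). It was the only one of the 94 whose groups did not overlap in this comparison, with 0 higher and 1 lower, against 3.14% and 3.19% of all tested genes. Ndufs1, the largest core subunit of complex I (chromosome 9, 69919867 to 69953182), was at 118.5, 115.9, 120.7 and 107.6 CPM in healthy and at 108.3, 85.5, 96.3 and 110.1 CPM in osteoarthritic libraries (-0.21 ± 0.11, adjusted p = 0.306), and the groups overlapped. In both genes the lowest osteoarthritic libraries were replicates 2 and 3, those in which most other members were highest. Cox8b, the heart and muscle form of subunit 8, had -0.60 ± 0.35 (adjusted p = 0.374), and -0.35 without osteoarthritic replicate 4.

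By complex, the median log2 fold change was 0.37 in complex I (37 of 40 above 0), 0.17 in complex II (3 of 4), 0.49 in complex III (9 of 9), 0.42 in complex IV (16 of 21) and 0.35 in complex V (15 of 16). With osteoarthritic replicates 1 and 4 alone, the values were -0.21, -0.05, -0.18, -0.16 and -0.24 in the same order. All 28 tested accessory subunits of complex I and all 10 common subunits of complex IV had values above 0 with all libraries. Without replicates 2 and 3, 27 of the 28 and all 10 had values below 0.

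The HA treatment was compared with osteoarthritic cartilage next. No member passed, and no gene at all did (0.0%), while 23 members, all lower, had an unadjusted p below 0.05 against 6.34% of all tested genes. DESeq2 called no member either. The median over the 94 was -0.36 (9 above 0 and 85 below), beside -0.01 over all tested genes. On the FPKM scale the split was 25 to 69, with a median of -0.13 against 0.12 for all genes. This comparison and the first share the osteoarthritic libraries, so their values are not independent. Without osteoarthritic replicates 2 and 3 the median was 0.23, with 84 above 0 and 10 below. No member separated the 2 groups in either direction, where 1.08% of all tested genes were higher and 0.823% lower without overlap.

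The members with the smallest p were Uqcrq (-1.06 ± 0.37), Ndufc1 (-1.15 ± 0.41) and Cyc1 (-0.40 ± 0.15), each at an adjusted p of 0.745. Uqcrq was at 33.5, 33.99, 32.96 and 38.6 CPM in the HA-treated libraries, above osteoarthritic replicates 1 and 4 and below replicates 2 and 3. Cyc1 was at 78.7, 74.0, 72.0 and 80.4 CPM in HA-treated and at 76.4, 125.3, 124.5 and 75.8 CPM in osteoarthritic cartilage, so the HA-treated values spanned osteoarthritic replicates 1 and 4 and lay under replicates 2 and 3. On the higher side the smallest p belonged to LOC100910710 (0.69 ± 0.54), Ndufa4l2 (0.28 ± 0.30) and Cox6b2 (0.23 ± 0.31), with adjusted p of 0.788, 0.834 and 0.874. Without osteoarthritic replicate 3 LOC100910710 had 0.28, and without osteoarthritic replicate 4 Cox6b2 had 0.034. LOC100910710 and Cox6b2 are low, with CPM of 1.31 to 2.43 and 0.566 to 1.32 in these groups apart from 0.0476 for LOC100910710 in osteoarthritic replicate 3. LOC100910710 is listed as a long non-coding RNA and described as like subunit 12 of the complex I alpha subcomplex. Whether it shares reads with Ndufa12 was not tested.

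The coacervate treatment against osteoarthritic cartilage gave a like picture with the same osteoarthritic libraries. No member passed, where 0.146% of all tested genes did, and the smallest adjusted p was 0.124. At an unadjusted p below 0.05 there were 30 members (2 higher, 28 lower), against 21.8% of all tested genes. DESeq2 called 4, all lower (5.55% of all genes): Cox17, Cox6a1, Ndufs5 and Uqcrq. The median was -0.36, with 15 above 0 and 79 below, beside -0.01 over all tested genes. Without osteoarthritic replicates 2 and 3 it was 0.21, with 89 above 0 and 5 below, and no member passed. Without osteoarthritic replicate 1, 35 members were called, all lower (14.3% of all genes), and without replicate 4, 23 were, all lower (9.54%). Each of these fits leaves out a library that is among the lowest for these genes, so these calls are no separate test either.

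Cox17, the copper carrier of complex IV, was at 20.2, 17.9, 18.1 and 19.9 CPM in coacervate-treated and at 18.9, 45.3, 42.5 and 24.1 CPM in osteoarthritic cartilage (log2 fold change -0.78 ± 0.24, adjusted p = 0.124). The treated values overlapped only osteoarthritic replicate 1. Uqcrq had -1.17 ± 0.37 (adjusted p = 0.132) and Ndufs5 had -0.99 ± 0.32 (adjusted p = 0.136). Ndufs1 went the other way, at 128.6, 110.3, 142.9 and 110.6 CPM, above all 4 osteoarthritic libraries (0.30 ± 0.11, adjusted p = 0.151). It was the 1 member that was higher without overlap, against 2.47% of all tested genes, and no member was lower without overlap, against 3.13%. Sdha, the flavin subunit of complex II, was at 176.1, 174.4, 216.8 and 181.1 CPM against 186.4, 162.5, 153.0 and 152.6 CPM in osteoarthritic cartilage (0.19 ± 0.10, adjusted p = 0.248), and the value was 0.12 without coacervate replicate 3. Cox6a2 was the other higher member at an unadjusted p below 0.05 (0.70 ± 0.31, adjusted p = 0.21), and it had 0.16 without coacervate replicate 3.

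Few of these genes set the treatments apart from each other. Between coacervate-treated and HA-treated cartilage no member and no other gene passed (0.0%), 2 members had an unadjusted p below 0.05 against 10.4% of all tested genes, and the median was -0.02 (39 above 0 and 55 below) beside -0.00 over all tested genes. DESeq2 called 1 member here, Cox6a2 (2.27% of all genes). It was also the 1 member that was higher without overlap, against 4.35% of all tested genes, and no member was lower without overlap, against 5.36%. The other members with a small p were Ndufs1 (0.25 ± 0.11, adjusted p = 0.420) and Cox8b (0.73 ± 0.35, adjusted p = 0.507) on the higher side, and LOC684509 (-0.56 ± 0.32, adjusted p = 0.597), Cox17 (-0.26 ± 0.24, adjusted p = 0.787) and Ndufa8 (-0.27 ± 0.25, adjusted p = 0.794) on the lower. Without coacervate replicate 3, Cox8b had 0.26 and Ndufs1 had 0.17.

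No member passed between either treated group and healthy cartilage. Between HA-treated and healthy cartilage no member passed where 0.16% of all tested genes did, 4 had an unadjusted p below 0.05 against 8.25%, and the median was 0.02 (55 above 0 and 39 below). A fit of those 8 libraries alone called 1 member, Cox6a2 (2.72% of all genes), at a log2 fold change of -0.70. Between coacervate-treated and healthy cartilage no gene passed (0.0%), 2 members had an unadjusted p below 0.05 against 3.85%, and the median was 0.01 (52 above 0 and 42 below). On the FPKM scale that split was 42 to 52, with a median of -0.01. DESeq2 called no member in either. With HA, 4 members were higher than healthy without overlap (Ndufs5, Cox5b, Ndufa4l2 and Atp5mg), against 5.08% of all tested genes, and 5 were lower (Ndufab1, Cox10, Cox6a2, Cox8b and Atp5mc1), against 4.76%. With the coacervate, 2 were higher (LOC108348144 and Ndufa4l2), against 1.75%, and 1 was lower (LOC684509), against 1.91%. A p that misses the threshold does not show that the levels were the same.

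Cox10 was at 15.8, 12.6, 14.5 and 15.1 CPM with HA, below all healthy libraries (-0.33 ± 0.14, adjusted p = 0.533). LOC684509, a row described as similar to the B9 subunit of complex I, was at 2.27, 4.10, 3.62 and 2.83 CPM in healthy and at 1.11, 2.13, 1.75 and 2.11 CPM in coacervate-treated cartilage, a low gene whose groups did not overlap (-0.85 ± 0.32, adjusted p = 0.9998). Whether this row shares reads with another gene of that subunit was not tested. LOC108348144 had 0.68 ± 0.37 with HA (adjusted p = 0.687) and 0.66 ± 0.37 with the coacervate (adjusted p = 0.9998), with the doubt about its near copy given above. Of the rest with the smallest p, Ndufb10 had 0.18 ± 0.14 with HA (adjusted p = 0.892). With the coacervate, Cox6a2 had 0.36 ± 0.31, Ndufa1 -0.48 ± 0.51 and Cox17 -0.19 ± 0.24, each at an adjusted p of 0.9998, and Cox17 had -0.045 without healthy replicate 4.

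The remaining members with the smallest p against healthy cartilage were forms of complex IV subunits used in some tissues or conditions. Ndufa4l2 is a low-oxygen form of NDUFA4, a subunit now placed in complex IV (chromosome 7, 70821957 to 70824085). It was at 6.88, 7.29, 7.93 and 6.08 CPM in healthy, 11.49, 7.86, 10.1 and 16.7 in osteoarthritic, 10.4, 21.6, 15.4 and 8.56 after HA and 10.9, 10.9, 19.6 and 8.79 CPM after the coacervate. All 8 treated libraries lay above all 4 healthy ones, and 3 of the 4 osteoarthritic libraries did. The log2 fold change against healthy was 0.99 ± 0.30 with HA (adjusted p = 0.298) and 0.83 ± 0.30 with the coacervate (adjusted p = 0.9998), so neither passed, and the latter was 0.53 without coacervate replicate 3. Osteoarthritic replicates 2 and 3 were the 2 lowest of their group for this gene, the reverse of most members.

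Cox6a2, the heart and muscle form of subunit 6A, and Cox8b, that of subunit 8, are given beside the share of skeletal muscle transcripts. Cox6a2 was at 46.5, 55.1, 39.3 and 45.3 FPKM in healthy, 38.2, 28.6, 41.1 and 24.5 in osteoarthritic, 32.9, 23.1, 26.6 and 33.5 after HA and 37.3, 47.6, 111.1 and 37.8 FPKM after the coacervate. The value of coacervate replicate 3 was the highest of 16. Transcripts of skeletal muscle made up 2.52% of counts in that library and 0.400% to 1.27% in the other 15, with a mean ± SD (n = 4) of 0.968% ± 0.140 for healthy, 0.578% ± 0.171 for osteoarthritic, 0.576% ± 0.0509 for HA-treated and 1.32% ± 0.838 for coacervate-treated cartilage. All 17 tested skeletal muscle genes were above 0 in coacervate against HA, with a median log2 fold change of 1.15, beside 1.05 ± 0.31 for Cox6a2 (adjusted p = 0.193). All 17 were below 0 in HA against healthy, with a median of -0.75, beside -0.70 ± 0.31 for Cox6a2 (adjusted p = 0.574) and -0.86 ± 0.35 for Cox8b (adjusted p = 0.526). Without coacervate replicate 3, Cox6a2 had 0.52 in coacervate against HA and -0.18 against healthy. The part of muscle transcripts in these values was not tested.

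**Figure D5:**
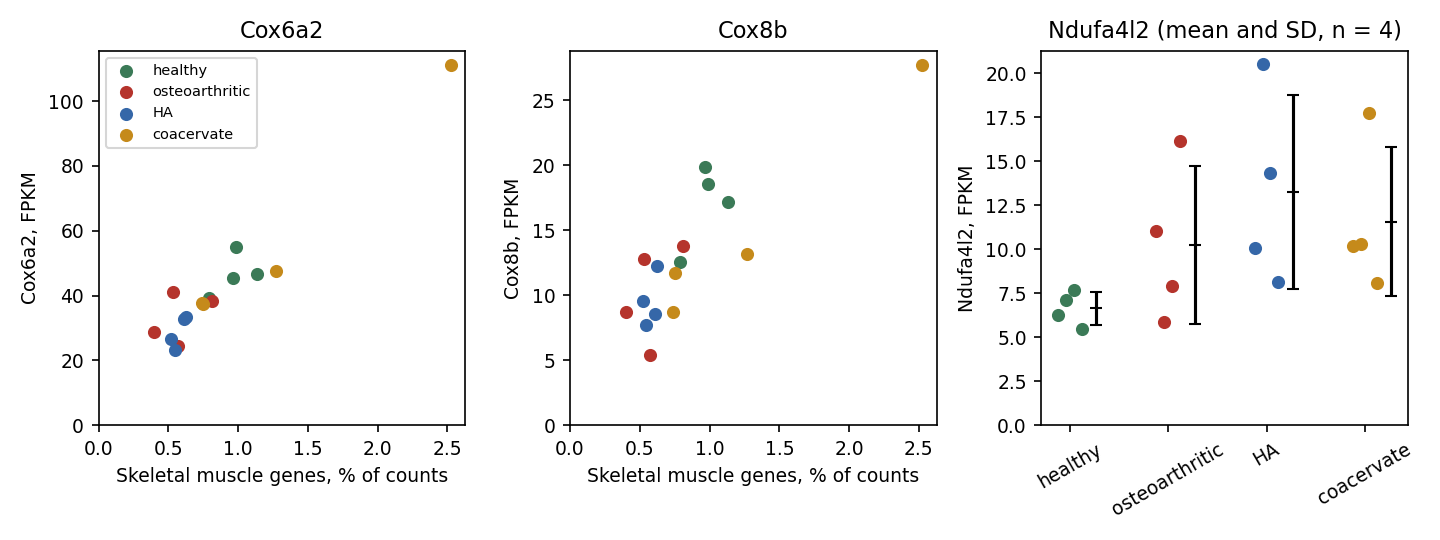
FPKM of Cox6a2 and Cox8b in each of the 16 libraries against the share of counts in skeletal muscle genes (left and middle), and FPKM of Ndufa4l2 by group with mean and SD, n = 4 (right). Coacervate replicate 3 lies highest in both muscle forms, at 111.1 and 27.7 FPKM with a muscle share of 2.52%.

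The balance between such forms and their common partners was compared as a log2 ratio of FPKM values, in 4 pairs and 6 comparisons (24 two-sided exact permutation tests over 70 assignments, which cannot go below p = 0.0286). No balance passed after adjustment over the 24, with a smallest adjusted p of 0.137. With that floor, an adjusted p below 0.05 would need many of the 24 tests at the floor at once. This outcome therefore does not show that the balances were alike. The unadjusted p was at the floor for Cox6a2 to Cox6a1 in osteoarthritic against healthy, HA against healthy and coacervate against HA. It was also there for Cox8b to Cox8a in HA against healthy and for Ndufa4l2 to Ndufa4 in coacervate against healthy. For Cox6a2 to Cox6a1 the log2 ratio was -1.37 ± 0.16 in healthy, -2.43 ± 0.70 with osteoarthritis, -2.21 ± 0.25 after HA and -1.16 ± 0.93 after the coacervate (SD, n = 4). The muscle form was thus at 34.9% to 44.3% of the common form in healthy cartilage and at 112.8% in coacervate replicate 3. Cox8b to Cox8a gave -2.27 ± 0.29, -3.37 ± 0.73, -3.27 ± 0.36 and -2.54 ± 0.89 in the same order. In osteoarthritic replicates 1 to 4 the common form Cox6a1 was at 114, 271.8, 261.3 and 115.5 FPKM. Cox8a was at 69.3, 132.4, 135.8 and 76.8 FPKM there. The log2 ratio of Cox6a2 to Cox6a1 was -1.58, -3.25, -2.67 and -2.24 in these libraries. The ratios of the osteoarthritic group thus also carry the higher common forms of replicates 2 and 3. Cox4i2, the lung and low-oxygen form of subunit 4, was at 2.08 to 4.05 FPKM throughout, a log2 ratio to Cox4i1 of -6.52 ± 0.33 in healthy and -6.84 ± 0.99 in osteoarthritic cartilage. The ratio of Ndufa4l2 to Ndufa4 was -3.82 ± 0.23 in healthy, -3.27 ± 1.08 with osteoarthritis, -2.88 ± 0.67 after HA and -3.01 ± 0.50 after the coacervate.

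Genes that build and feed the complexes were described from lists chosen with earlier results of these data known, and none of their members passed the edgeR test in any of the 6 comparisons. In osteoarthritic against healthy cartilage the median log2 fold change was 0.27 over 16 assembly factors of complex I (14 above 0), 0.31 over 25 assembly factors of the other complexes (20 above 0), 0.02 over 12 enzymes of the tricarboxylic acid cycle (7 above 0), 0.03 over 9 carriers and channels (5 above 0) and -0.00 over 14 regulators of mitochondrial biogenesis (6 above 0). In osteoarthritic replicates 2 and 3 the assembly factors of complex I were at a mean log2 level of 0.50 and 0.54 and those of the other complexes at 0.54 and 0.50. The cycle enzymes were at 0.08 in both, and the regulators at -0.02 and -0.01, within their range of -0.10 to 0.09 in the other 14 libraries.

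Of the regulators, Nrf1, which binds the NRF1 core, had a log2 fold change of -0.00 ± 0.09 in osteoarthritic against healthy cartilage (adjusted p = 0.994). Gabpa, the ETS factor of the GABP pair, had 0.01 ± 0.11 (adjusted p = 0.972), and Esrra, a nuclear receptor of mitochondrial genes, had -0.01 ± 0.13 (adjusted p = 0.972). Tfam, which packs and transcribes mitochondrial DNA, had 0.31 ± 0.25 (adjusted p = 0.515). Its FPKM ran from 14.46 to 29.9 in osteoarthritic and from 18.4 to 22.34 in healthy libraries. The mean level of the regulators therefore does not describe each of them. Ppargc1a, the coactivator PGC-1alpha, was below the level tested, at 0.445 ± 0.153 FPKM in healthy, 0.278 ± 0.170 with osteoarthritis, 0.300 ± 0.130 after HA and 0.375 ± 0.146 FPKM after the coacervate (SD, n = 4). The 13 protein genes of the mitochondrial genome were all below 0 in osteoarthritic against healthy cartilage, with a median of -0.46 (10 at an unadjusted p below 0.05, none after adjustment), where 82 of the 94 nuclear genes were above 0. Against osteoarthritic cartilage their median was 0.43 with the coacervate (12 of 13 above 0) and 0.15 with HA (11 of 13). These comparisons share the osteoarthritic libraries. By library, the mean log2 level of the mitochondrial genome was -0.10, -0.61, -0.34 and -0.01 in osteoarthritic replicates 1 to 4. It was 0.19, 0.13, -0.06 and 0.59 in healthy replicates 1 to 4. The nuclear genes were at -0.28, 0.70, 0.64 and -0.30 in osteoarthritic replicates 1 to 4. In that group the nuclear and mitochondrial sets thus went opposite ways in replicates 2 and 3 only.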

How the data were processed

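RNA of 16 rat knee cartilage libraries was sequenced in pairs of reads from poly(A)-selected RNA, per the labels' protocols. The deposited table gives counts and FPKM per gene, per the file headers. Counts were deposited without normalisation, and FPKM as deposited by the authors are relative to gene length and depth. Tools in the submitters' processing notes are HISAT2 2.2.1, cutadapt 1.9, StringTie 2.1.6, edgeR and DESeq2, with the build rn6. The counting tool, strand setting and annotation are not given in the sources used here, so overlapping genes and near copies are uncertain. Low counts were more often 2 (6480 values) than 3 (4576). Such a fall can arise however mates are counted, so whether they were counted separately is not known.

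Genes reaching an FPKM of 1 in 4 or more libraries were tested with edgeR 4.0.16 (quasi-likelihood, TMM, 1 fit of 4 group means over 16 libraries, adjusted over 14337 genes, threshold 0.05). Log2 levels used a prior count of 2. Total counts were 36988722 to 50725189 per library. Alternatives were DESeq2 1.42.0, limma 3.58.1 on log2(FPKM + 1) and log2(FPKM + 0.1), other scalings, no filter, haemoglobin genes left out, 8 libraries per comparison, a replicate block, and libraries left out (R 4.3.3). The procedure was tested on simulated data. The members, lists and tests were chosen with earlier results of these data known. Named genes are the highest member of each complex, core subunits, isoform pairs, 5 regulators and, per comparison, called members or the 3 with the smallest p in each direction. Genes named for library patterns, DESeq2 calls and near copies were chosen after their values were seen. Cox7a1 to Cox7a2 was not tested as a pair. Skeletal muscle, cartilage matrix, haemoglobin, erythroid, macrophage, neutrophil, B cell and adipocyte lists marked other cells. Promoters are RefSeq GRCr8 sequences, and gene coordinates are those of the deposited table.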

Additional observations from a re-analysis of the deposited data

Results flagged for a closer look

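Of 136 groups of 4 values examined, 7 held a library far from the other 3 of its group, and chance gives about 1 in 20. Sdha was at 159.1 CPM in healthy replicate 4, against 178.2 to 180.8 in the other healthy libraries, and at 216.8 CPM in coacervate replicate 3, against 174.4 to 181.1. Cox6a2 was at 61.7 CPM in coacervate replicate 3, against 20.1 to 25.3. Cox10 was at 20.3 CPM in healthy replicate 1, against 17.4 to 17.8. Cox6b2, a testis form of subunit 6B, was at 1.84 CPM in healthy replicate 4, against 0.775 to 0.940. The log2 ratio of Cox8b to Cox8a was -2.71 in healthy replicate 3, against -2.15 to -2.10. Haemoglobin genes took 11.1% of the counts in HA replicate 1, against 12.3% to 12.5%.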

How the results depend on the processing

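No member passed the edgeR test in any of the 6 comparisons with all libraries, and this count stayed at 0 with DESeq2's size factors, upper-quartile scaling, haemoglobin genes left out, no filter on low counts and limma on FPKM. DESeq2 called 3 members in osteoarthritic against healthy, 4 in coacervate against osteoarthritic and 1 in coacervate against HA, and the fit of 8 libraries called 1 in HA against healthy. Leaving out 1 library at a time gave 0 to 21 called members in osteoarthritic against healthy and 0 to 35 in coacervate against osteoarthritic. The medians then ran from 0.22 to 0.52 in osteoarthritic against healthy, -0.53 to -0.20 in HA against osteoarthritic, -0.54 to -0.22 in coacervate against osteoarthritic, -0.0723 to 0.0310 in coacervate against HA, -0.00988 to 0.0591 in HA against healthy and -0.0258 to 0.0690 in coacervate against healthy. On the FPKM scale the last median was -0.0102 with a pseudocount of 1 and -0.0104 with 0.1. Without osteoarthritic replicates 2 and 3, an alternative chosen with the data known and on the values of these genes, 1 member was called and the first 3 medians were -0.20, 0.23 and 0.21. In that setting Ndufs5 had -0.0497 and Uqcrq -0.15 in osteoarthritic against healthy, Uqcrq 0.30, Ndufc1 0.34, Cyc1 0.0042 and Ndufa4l2 -0.0079 in HA against osteoarthritic, and Uqcrq 0.19 and Ndufs5 0.10 in coacervate against osteoarthritic. Leaving out 1 library gave Ndufa4l2 -0.0119 to 0.49 in HA against osteoarthritic and Cox6a2 -0.18 to 0.52 in coacervate against healthy. The cause was not tested. Same-numbered libraries correlated at -0.39 to 0.21, so the numbers were not read as pairs, and with the replicate block no member was called and the medians were 0.33, -0.32, -0.32, -0.01, 0.02 and 0.02 in the order above. Total counts were 36988722 or more per library, and the part of depth in these values was not tested.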

Other observations

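Marker lists of other cells were also read in osteoarthritic replicates 2 and 3, as mean log2 levels in that order, against the range of the other 14 libraries. Erythroid genes other than haemoglobin (14 tested) were at 0.01 and 0.04, against -0.36 to 0.33. Neutrophil genes (13 tested) were at 0.72 and 0.23, against -0.57 to 0.33. Adipocyte genes (10 tested) were at 0.27 and 0.81, against -1.18 to 0.39. Macrophage genes (13 tested) were at -0.02 and 0.14, against -0.38 to 0.27. B cell genes (12 tested) were at -0.34 and -0.12, against -1.08 to 0.58. Skeletal muscle genes (17 tested) were at -0.74 and -0.24, against -0.59 to 1.63. Of these 6 lists, the neutrophil and skeletal muscle lists in replicate 2 and the adipocyte list in replicate 3 lay outside that range. The part of these cells in the levels of the 94 genes was not tested.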
